A study of Arabidopsis thaliana with 48 samples.

Results

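The step from 4 to 5 weeks after sowing was followed in shoot apices of wild-type (WT) Arabidopsis thaliana, the accession Col, kept in short days. It uses 6 of the 48 samples, chosen by the labels alone: 3 libraries of WT at 4 weeks and 3 of WT at 5 weeks, compared over all genes. The other genotypes are quintuple (svp flc ft tsf soc1), chr4-2 (the insertion line sail_783c05 in CHR4, also called PKR1, a chromatin remodeller) and qem2, made in the quintuple background, each at 3, 4, 5 and 6 weeks with 3 libraries per genotype and week. All plants had 8 h light and 16 h dark at 21 C, and each library came from 15 pooled apices enriched for the meristem, so that the tissue around the meristem is part of a sample. The labels describe the 3 replicates of a group as biological and independent, and reads per gene were deposited as counts.

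Arabidopsis flowers early in long days and late in short days. In short days the shoot apical meristem goes on making rosette leaves for weeks, while microRNA156 declines, its SPL targets are released and gibberellin signalling takes over much of the work that FT does under long days. SVP and FLC repress the floral integrator genes SOC1, FT and TSF in this network. Beneath the meristem, procambium feeds phloem and xylem, and a ring of boundary cells marked by LOB and the BOP genes separates each new leaf from the meristem.

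The WT libraries of the comparison held 14.72, 8.05 and 18.78 M (mega) assigned reads at 4 weeks and 13.04, 10.03 and 14.35 M at 5 weeks, within a range of 2.91 to 19.75 M over the series. Of 27206 genes in the table, 19566 had enough reads to be tested. Levels are given as CPM (counts per M of reads) on library sizes scaled by the trimmed mean of M-values, and compare samples within a gene only. The meristem genes of the list were read at a summed level of 1198 to 1268 CPM at 4 weeks and 1118 to 1184 CPM at 5 weeks. Every sum at 5 weeks thus lay below those at 4 weeks. Of 12 root markers, 7 were too low to test.

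Libraries of both groups stood apart from their own replicates. WT 5 weeks replicate 3 lay more than 2-fold from both other libraries of its group at 560 genes, 465 of them lower, of 17645 genes with at least 1 CPM (3.17%). The same count was 61 and 115 for the other libraries at 5 weeks. Its log2 CPM correlated at 0.9699 and 0.9669 with its own replicates and at 0.9744 to 0.9766 with the 6 week libraries, as a description over genes, which are not independent. WT 4 weeks replicate 2 lay apart at 215 of 17835 genes (1.21%), against 20 and 25 in the other libraries at 4 weeks. The fits were therefore repeated without WT 5 weeks replicate 3 and, as settings added after the data were seen, without both libraries and without replicate 2 of every genotype at 4 weeks.

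**Figure D1:**
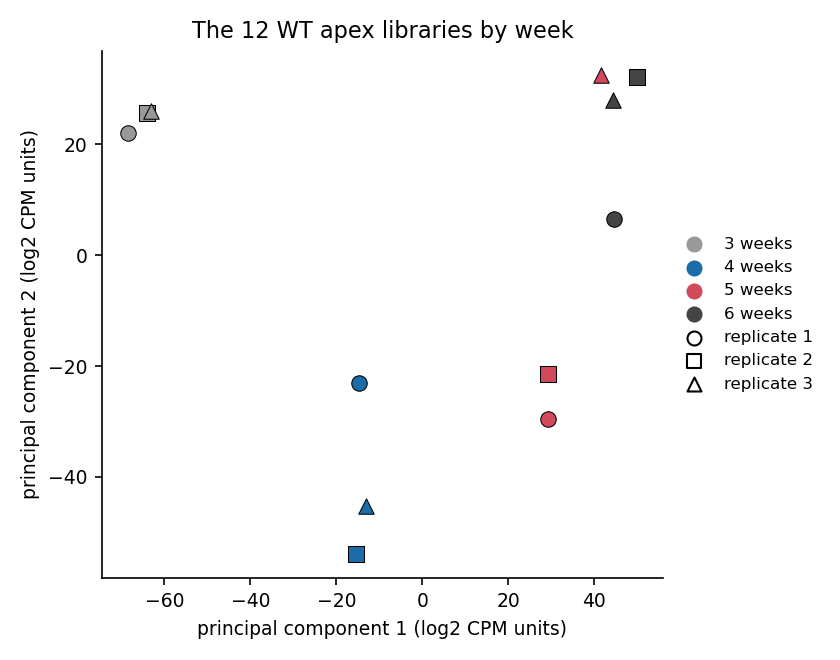
Principal components of log2 CPM over the 12 WT libraries, component 1 (42% of the variance) against component 2 (20.8%), with colour for the week and shape for the replicate number. On component 1 the 4 week libraries lie between -15.52 and -13.2 and the 5 week libraries between 29.18 and 41.53, while on component 2 WT 5 weeks replicate 3 lies at 32.59, beside 6 weeks, and its 2 replicates at -29.49 and -21.4.

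The clock genes set WT 4 weeks replicate 2 apart. CCA1 and LHY, the MYB factors that peak near dawn, were at 6.16, 173 and 10.1 CPM and at 6.23, 327 and 14.1 CPM in the 3 libraries at 4 weeks. At 5 weeks they were at 9.13, 2.11 and 1.65 CPM and at 10.1, 1.81 and 1.17 CPM. FKF1, an afternoon blue-light receptor, ran the other way, at 21.5, 0 and 6.53 CPM at 4 weeks and at 16.6, 43.3 and 94.2 CPM at 5 weeks. Replicate 2 was thus the high library for the dawn genes and the one with no FKF1 read, and WT 5 weeks replicate 3 was at the other end. The same replicate number was high at LHY in the other genotypes at 4 weeks, at 2.18, 176 and 62.0 CPM in quintuple and 6.14, 285 and 15.9 CPM in chr4-2. The labels give no hour of harvest.

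**Figure D2:**
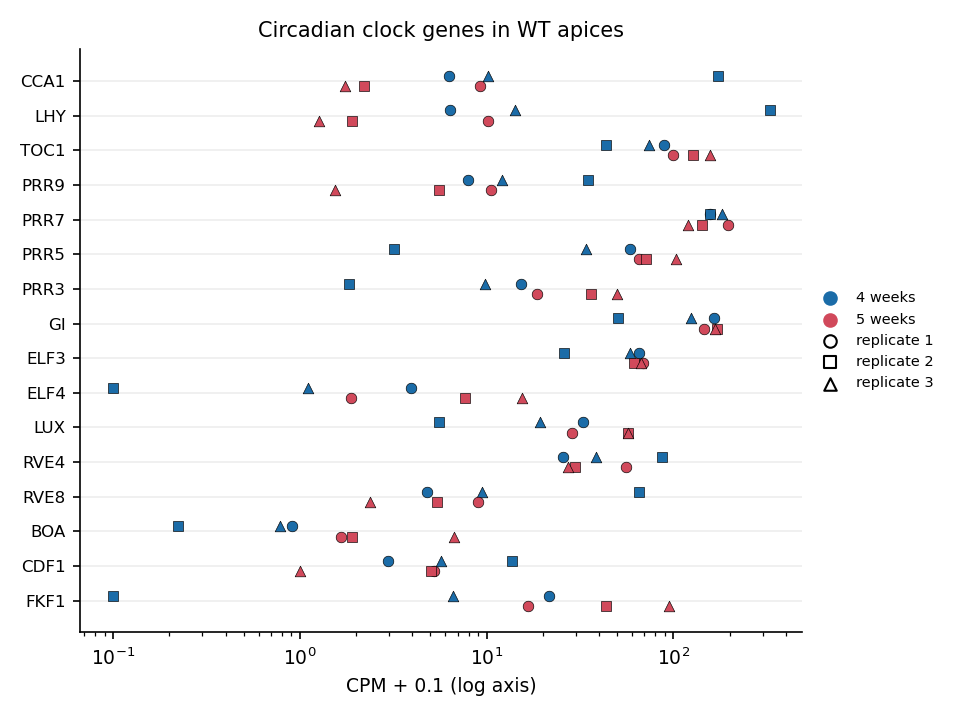
CPM of 16 circadian clock genes in WT apices, each point a library, blue for 4 weeks and red for 5 weeks, shape for the replicate number, on a log axis after adding 0.1. The 4 week square (replicate 2) is the highest point for CCA1 and LHY (173 and 327 CPM) and the lowest for PRR5, ELF4, LUX and FKF1.

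Of the 19566 genes, 929 (4.75%) changed between 4 and 5 weeks in edgeR's quasi-likelihood test at a Benjamini-Hochberg adjusted p under 0.05. Falls were more numerous, with 681 genes lower (3.48%) and 248 higher (1.27%). Falls were also larger. The median log2 fold change was -1.21 among the lower genes and 0.57 among the higher ones, and 402 of the falls and 62 of the rises reached 2-fold. Genes that fell had a median level of 9.07 CPM and those that rose of 38.2 CPM, against 21.4 CPM over all tested genes. The 3 libraries a side did not overlap at 658 of the falls (96.6%) and 236 of the rises (95.2%), against 4120 of all tested genes (21.1%).

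For WT 5 against 4 weeks without replicate 3 of 5 weeks the count was 329 (1.68%), with 250 lower (1.28%) and 79 higher (0.404%), of which 241 falls and 68 rises were also called with all libraries. Without WT 4 weeks replicate 2 it was 495 (2.53%), and without both it was 158 (0.809%), with 133 lower (0.681%) and 25 higher (0.128%), 132 and 24 of them called with all libraries. WT 5 weeks replicate 3 was the lowest of its group at 68.9% of the falls, against 45.0% of all genes with a lower mean. With the spread estimated from the 6 compared libraries alone 47 genes were called, and from the 12 WT libraries 578.

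**Figure D3:**
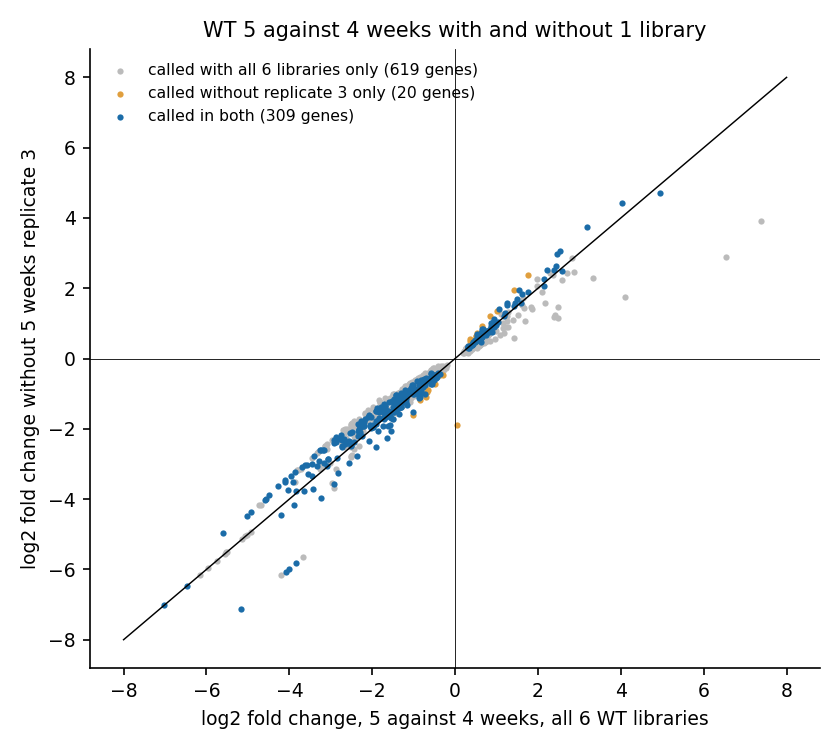
Fitted log2 fold change of WT 5 against 4 weeks with all 6 libraries (x axis) against that without WT 5 weeks replicate 3 (y axis), each point a gene called in at least 1 of the 2 fits, with the line of equal values. Blue marks the 309 genes called in both, grey the 619 called only with all 6 libraries and orange the 20 called only without replicate 3, with most points on or near the line.

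The 12 largest falls among genes called with and without WT 5 weeks replicate 3 ended near 0 CPM. AT3G44970, which encodes a cytochrome P450 (TAIR10.1 chromosome 3), was at 4.15, 3.46 and 5.16 CPM at 4 weeks and 0.232, 0 and 0 CPM at 5 weeks. It fell by 5.61 on the log2 scale (SE 0.67, adjusted p = 2.72e-06), and by 5.07 without both libraries (adjusted p = 0.000536). Its counts were 188 reads at 4 weeks and 3 at 5 weeks, a ratio of 55.8 with a 95% counting interval of 18.8 to 273. The WT level had been 34.8, 28.0 and 34.9 CPM at 3 weeks.

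PIN5, an auxin carrier of the endoplasmic reticulum, was at 2.08, 4.94 and 4.05 CPM and then at 0.232, 0.302 and 0.138 CPM. Its log2 change was -4.02 (SE 0.59, adjusted p = 6.55e-05) and -3.51 without both libraries (adjusted p = 0.0101). GolS3, a galactinol synthase known from cold responses, was at 5.43, 9.88 and 7.21 CPM and then at 0.928, 0.302 and 0.207 CPM. Its log2 change was -3.92 (SE 0.58, adjusted p = 6.55e-05), with replicate 2 the highest at 4 weeks, and it was -3.28 without both libraries (adjusted p = 0.0108). NRT1.5, a nitrate transporter that loads xylem in roots, was at 8.1, 15.2 and 7.06 CPM and then at 0.619, 0.704 and 0.0689 CPM. It fell by 4.48 on the log2 scale (SE 0.81, adjusted p = 0.000826), and the adjusted p was 0.0677 without both libraries. AT3G54510, of the ERD4 family, was at 0.469, 3.33 and 0.263 CPM and had no read at 5 weeks, at least 11.7-fold lower against a floor of 3 reads over the group. Its adjusted p was 0.00364 with all libraries and 0.0619 without WT 4 weeks replicate 2, the library that held most of its reads.

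The other 7 of the 12 largest falls had between 1 and 3 reads in the 5 week group, as AT3G44970 did. They were LAC3 (a laccase), FACT (an acyltransferase for fatty alcohol esters), AT2G22510 (a hydroxyproline-rich glycoprotein), AT3G58550 (a lipid-transfer protein), AT3G13403 (defensin-like), AT5G38550 (a mannose-binding lectin) and AT1G62225 (uncharacterized). Their 4 week levels lay between 0.369 and 2.08 CPM in every library. The ratio ran from 19.0 for FACT (95% counting interval 6.21 to 94.5) to 48.0 for AT1G62225 (8.26 to 1930).

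The 12 largest rises were taken on the same terms. HFR1, a bHLH factor of shade and far-red light responses (TAIR10.1 chromosome 1), was at 0.067, 0.247 and 0 CPM at 4 weeks and at 2.94, 1.21 and 3.24 CPM at 5 weeks. The log2 change was 4.94 (SE 0.75, adjusted p = 6.92e-05) and 5.79 without both libraries (adjusted p = 0.00221). From 3 reads against 97 the ratio was 36.3 (95% counting interval 12.1 to 179). HFR1 stood at 14.3, 9.99 and 11.4 CPM at 6 weeks. In quintuple it was already at 1.17, 1.22 and 1.67 CPM at 4 weeks and at 3.72, 0.785 and 1.35 CPM at 5 weeks, and the test of the difference between the steps gave an adjusted p of 0.169.

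AT5G44260, a CCCH zinc-finger protein gene, was at 2.01, 0.247 and 1.9 CPM and rose to 12.1, 4.93 and 10.3 CPM. Its log2 change was 2.57 (SE 0.52, adjusted p = 0.00239), with replicate 2 the lowest library on both sides and the adjusted p at 0.082 without both libraries. AT1G13470, whose DUF1262 protein has no settled role, was at 1.34, 1.36 and 1.26 CPM and rose to 6.73, 8.55 and 5.51 CPM. This rise held without both libraries, at 2.54 on the log2 scale (adjusted p = 0.0174), as did that of AT5G02580 at 2.42 (adjusted p = 0.0457). AT2G23680, of the cold-acclimation WCOR413 family, was at 1.34, 1.98 and 2.37 CPM and rose to 5.57, 5.84 and 5.72 CPM, with a log2 change of 1.58 (SE 0.37, adjusted p = 0.00758). Without both libraries its adjusted p was 0.0909.

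The other 7 were THI2.1 (a thionin induced by jasmonate), PROPEP4 (a precursor of defence peptides), AT1G67000 (a receptor-like kinase), AT1G80130 (a TPR protein), AT3G11930 (an adenine nucleotide alpha hydrolase-like protein), AT2G43535 (defensin-like) and SCPL9 (a carboxypeptidase). THI2.1 was at 1.74, 2.84 and 3.9 CPM and then at 37.6, 87.5 and 17.4 CPM, with a log2 change of 4.03 (SE 1.09, adjusted p = 0.0272). None of the 7 passed without both libraries, where their adjusted p ran from 0.0632 to 0.144.

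The 4 windows of 250 bases before an annotated gene start printed here show what the motif shares refer to. They are the 3 genes among these 24 with the core of the evening element AATATCT, the site of the clock MYB factors, and GolS3 with a dehydration-responsive core GCCGAC and a G-box CACGTG. Each is printed because the gene is among those described above. Letters run 5′ to 3′ on the gene's strand, from RefSeq TAIR10.1, and capitals mark a motif on either strand.
AT5G44260 (chr5:17831337-17831586, minus strand): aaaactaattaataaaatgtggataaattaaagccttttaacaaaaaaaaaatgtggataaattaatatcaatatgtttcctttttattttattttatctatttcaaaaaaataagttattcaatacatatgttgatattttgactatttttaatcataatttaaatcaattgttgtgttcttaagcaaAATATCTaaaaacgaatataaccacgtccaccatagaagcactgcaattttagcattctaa
AT2G23680 (chr2:10065867-10066116, plus strand): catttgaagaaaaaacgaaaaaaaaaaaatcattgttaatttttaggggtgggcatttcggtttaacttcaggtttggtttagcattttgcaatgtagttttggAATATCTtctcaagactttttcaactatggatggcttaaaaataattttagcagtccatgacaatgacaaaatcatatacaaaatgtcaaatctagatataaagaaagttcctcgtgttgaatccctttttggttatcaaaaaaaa
NRT1.5 (chr1:11719989-11720238, minus strand): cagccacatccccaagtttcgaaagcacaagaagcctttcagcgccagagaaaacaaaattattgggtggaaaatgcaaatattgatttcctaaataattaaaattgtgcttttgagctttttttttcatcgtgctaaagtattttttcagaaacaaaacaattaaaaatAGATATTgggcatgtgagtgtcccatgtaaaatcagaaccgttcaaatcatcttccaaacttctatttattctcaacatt
GolS3 (chr1:3019389-3019638, plus strand): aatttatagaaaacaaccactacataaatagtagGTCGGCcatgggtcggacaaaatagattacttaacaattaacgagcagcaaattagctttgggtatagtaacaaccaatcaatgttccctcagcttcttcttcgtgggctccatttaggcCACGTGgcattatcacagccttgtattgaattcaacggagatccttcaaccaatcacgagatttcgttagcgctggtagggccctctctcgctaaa

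Counted from 250 bases before to 50 after the start on either strand, the evening element core was in 21.4% of the genes that rose, 11.2% of those that fell and 11.7% of the 19485 tested genes with a window. Without WT 5 weeks replicate 3 the shares were 26.6% and 11.2%. The site II element TGGGCC, common in genes of growth and ribosomes, was in 12.9% of the rises and 6.78% of the falls against 19.0%. G-boxes were in 10.1% and 8.26% against 8.89%. These are descriptions of letters in a window, with the difference in clock genes between the libraries beside them, whose part in the shares was not tested.

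Genes of vascular tissue made up the list with the most falls. Of 20 listed, 19 were tested, 7 fell and none rose, against a background of 3.48% lower, and all 19 fitted changes were negative with a median of -0.82 on the log2 scale (0.01 over all tested genes). Of the falls, 5 passed without WT 5 weeks replicate 3 and 4 without both libraries. In such samples fewer cells of a type and less RNA per cell cannot be told apart, and the summed level of the list was 764 to 922 CPM at 4 weeks and 527, 587 and 306 CPM at 5 weeks.

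The falls that passed without both libraries were in phloem genes and the cambial signal. PP2-A1, a phloem lectin of companion cells, was at 137, 173 and 184 CPM and then at 33.7, 45.3 and 19.3 CPM. Its log2 change was -2.34 (SE 0.35, adjusted p = 0.000105), with the groups wide apart. SEOR1, a structural protein of sieve elements, went from 102, 108 and 128 CPM to 52.1, 61.7 and 43.3 CPM, a log2 change of -1.11 (SE 0.17, adjusted p = 8.89e-05). CLE41, the phloem-derived peptide read by the cambium receptor PXY, went from 51.0, 61.9 and 68.6 CPM to 38.0, 38.0 and 31.1 CPM, a log2 change of -0.76 (SE 0.11, adjusted p = 4.44e-05). Neither group overlapped the other in these genes. FTIP1, which helps FT protein leave companion cells, changed by -1.34 (SE 0.24, adjusted p = 0.000559), and PP2-A1, SEOR1, CLE41 and FTIP1 were the 4 that passed without both libraries. APL, the MYB factor of phloem identity, went from 14.9, 18.0 and 20.1 CPM to 8.43, 8.95 and 4.13 CPM, a log2 change of -1.32 (SE 0.24, adjusted p = 0.000796), with an adjusted p of 0.0623 without both. PXY itself was at 215, 191 and 212 CPM and at 204, 212 and 119 CPM, with overlapping groups and an adjusted p of 0.602.

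None of the xylem and secondary wall members passed without WT 5 weeks replicate 3. XCP1, a protease of dying vessel cells, was at 24.6, 29.3 and 32.5 CPM at 4 weeks and at 20.7, 21.9 and 3.65 CPM at 5 weeks (adjusted p = 0.118). CESA4, a cellulose synthase of secondary walls, was at 13.8, 20.4 and 17.5 CPM and at 12.5, 16.7 and 3.93 CPM (adjusted p = 0.255). In both genes replicate 3 was far below the other libraries at 5 weeks. LAC4 and LAC17, laccases of lignin formation, fell with all libraries (log2 changes -1.10 and -1.29), every 5 week library being below every 4 week one, and were at -0.71 and -0.95 without WT 5 weeks replicate 3 (adjusted p = 0.146 and 0.175). That library was the lowest of its group for 18 of the 19 vascular genes, against 36.5% of all tested genes. Replicate 3 was also the lowest at 5 weeks for 15 of the 19 in quintuple and 11 of the 19 in chr4-2. The shares over all tested genes were 34.9% in quintuple and 31.3% in chr4-2. XCP1 stood at 7.94, 6.12 and 5.11 CPM in quintuple and 10.4, 20.5 and 8.22 CPM in chr4-2.

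**Figure D4:**
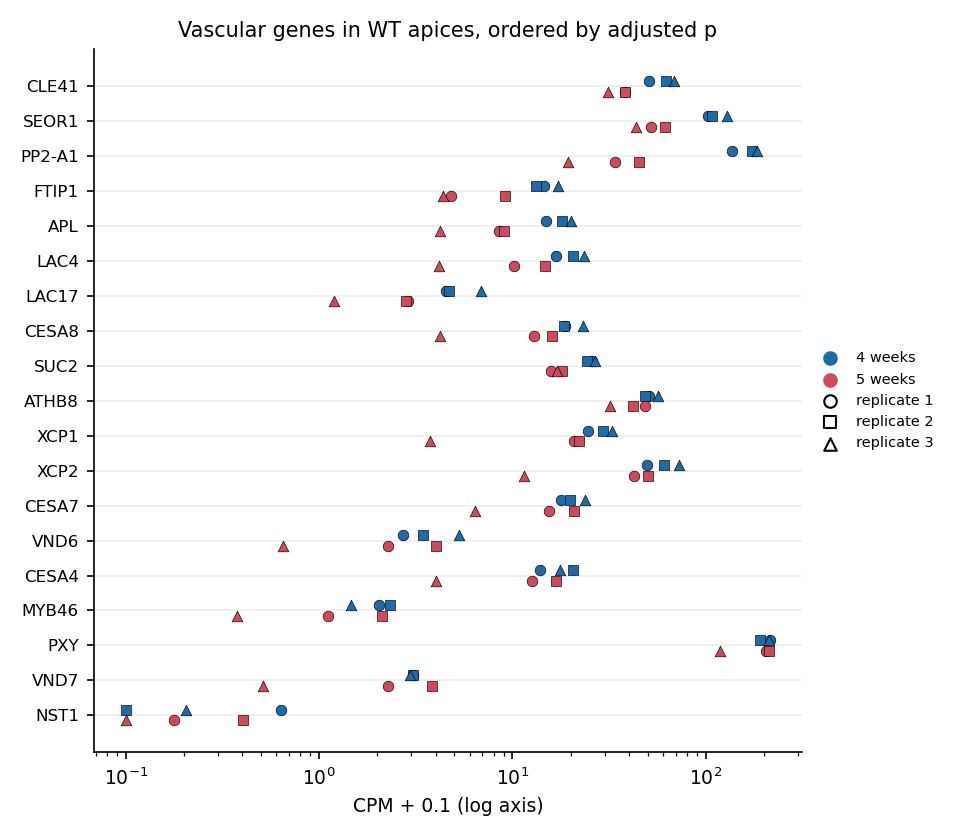
CPM of the 19 tested vascular genes in WT apices at 4 weeks (blue) and 5 weeks (red), ordered by adjusted p from the top, shape for the replicate number, on a log axis after adding 0.1. In the upper rows, such as CLE41, SEOR1 and PP2-A1, all red points lie below all blue points, while for XCP1 and CESA4 only replicate 3 (3.65 and 3.93 CPM) is far below.

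Boundary genes fell in part. Of 8 listed genes 3 fell, against 3.48% of all tested genes, and none rose, in the same number without WT 5 weeks replicate 3, and 2 fell without both libraries. BOP2, a co-regulator at the base of leaf primordia, went from 30.6, 34.1 and 32.1 CPM to 21.3, 20.1 and 13.1 CPM, a log2 change of -0.83 (SE 0.14, adjusted p = 0.000286). BOP1, its close homologue, went from 7.7, 7.9 and 6.42 CPM to 4.18, 3.12 and 4.55 CPM, a log2 change of -0.87 (SE 0.19, adjusted p = 0.00431). LOB, which they activate in boundaries, went from 8.44, 15.3 and 7.95 CPM to 3.71, 2.82 and 3.79 CPM, a log2 change of -1.56 (SE 0.30, adjusted p = 0.00125). Groups were apart in all 3 genes, and LOB had an adjusted p of 0.0702 without both libraries. The NAC boundary genes did not pass: CUC1, CUC2 and CUC3 changed by -0.17, -0.10 and -0.02 on the log2 scale with overlapping groups. LOB moved little in the mutants, by -0.07 in quintuple and -0.08 in chr4-2, and neither difference from WT passed (the tests of the difference are given at the end).

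Among the hormone lists that of cytokinin held the most falls. Its fitted changes were negative at 16 genes and positive at 6, with a median of -0.35 on the log2 scale. The median was -0.22 without WT 5 weeks replicate 3. Of 22 cytokinin genes 6 fell, against 3.48% of all tested genes, and none rose with all libraries, 1 fell without WT 5 weeks replicate 3 and none without both. IPT3, a cytokinin synthesis enzyme of phloem that responds to nitrate, went from 31.7, 53.3 and 48.9 CPM to 12.0, 12.5 and 2.14 CPM. The groups were apart, with a log2 change of -2.35 (SE 0.45, adjusted p = 0.00146) and an adjusted p of 0.0677 without both. IPT5 (-2.11), ARR9 (-1.44), ARR8 (-0.94), the degrading enzyme CKX1 (-0.80) and the response regulator ARR4 (-0.61) passed with all libraries and not without replicate 3, where they were at -1.47, -1.11, -0.68, -0.67 and -0.50. ARR9 was at 75.9, 127 and 86.4 CPM and then at 59.9, 28.7 and 17.6 CPM, with replicate 2 the highest at 4 weeks and replicate 3 the lowest at 5 weeks.

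Of 19 auxin genes 3 fell and 1 rose, against 3.48% and 1.27% of all tested genes. IAA1, a rapidly induced repressor of auxin response, went from 6.9, 10.1 and 7.64 CPM to 2.17, 4.33 and 2.69 CPM, a log2 change of -1.43 (SE 0.23, adjusted p = 0.000146). IAA3, of the same family, went from 13.2, 14.9 and 14.7 CPM to 5.34, 4.73 and 3.79 CPM, a log2 change of -1.63 (SE 0.29, adjusted p = 0.000688). Both were apart between the weeks and passed without both libraries (adjusted p = 0.025 and 0.0418). The influx carrier AUX1 fell by 0.53 and the synthesis gene TAR2 rose by 0.60. Without WT 5 weeks replicate 3 they were at -0.28 and 0.54 and neither was called (adjusted p = 0.387 and 0.0787). Of 22 gibberellin genes 3 fell with all libraries, against the same 3.48%, namely the synthesis genes GA1 (-1.39) and GA3OX1 (-1.26) and the degrading enzyme GA2OX6 (-0.99). None was called without that library, where they were at -1.02, -1.23 and -0.90.

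Few flowering genes were called. Of 10 floral promoters 2 rose, against 1.27% of all tested genes, and none fell, with 1 rise without WT 5 weeks replicate 3 and 0 without both libraries. AGL19, a MADS factor that promotes flowering, went from 8.31, 5.06 and 5.95 CPM to 10.3, 14.2 and 13.0 CPM, a log2 change of 0.93 (SE 0.20, adjusted p = 0.00328). The groups were apart, and the adjusted p was 0.0266 without WT 5 weeks replicate 3 and 0.126 without both libraries. AGL42, a close relative of SOC1, went from 7.17, 7.41 and 9.37 CPM to 11.1, 12.0 and 17.8 CPM (log2 change 0.76, adjusted p = 0.0281, and 0.297 without that replicate). AGL14, another MADS gene related to SOC1, is in none of the lists and was named after its values were seen. It rose by 2.71 (adjusted p = 0.0107), and was at 2.43 without replicate 3 (adjusted p = 0.0888). SPL3 was the 1 of 9 tested SPL targets of microRNA156 that passed, at 3.75, 4.82 and 6.16 CPM and then 7.5, 7.24 and 14.0 CPM (log2 change 0.96, adjusted p = 0.0492). It did not pass without replicate 3 (adjusted p = 0.438), although all 9 fitted changes were positive with a median of 0.20.

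Of 7 tested floral identity genes none passed. LFY, the floral meristem regulator, was at 3.15, 1.48 and 4.48 CPM and at 5.18, 6.44 and 4.96 CPM, apart between the weeks with a log2 change of 0.79 (SE 0.25, adjusted p = 0.0655). Of 19 floral repressors none passed, with FLC at 16.8, 23.2 and 18.3 CPM and then 14.3, 14.6 and 3.79 CPM (adjusted p = 0.201). Again replicate 3 was the low library for FLC, as it was in chr4-2 at 6.67, 7.22 and 1.66 CPM. Of the loci mutated in the other lines, SVP (0.03), SOC1 (0.58) and CHR4 (0.21) did not pass in WT either. FT had no read in these libraries and TSF too few to be tested. In the carpel and stamen list SPL8 (0.71) and the carpel factor SPT (0.64) rose among 10 tested, against 1.27% of all tested genes. SPT passed without WT 5 weeks replicate 3 (adjusted p = 0.021), while SPL8 did not (log2 change 0.46, adjusted p = 0.281). Neither passed without both libraries.

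Few growth genes of the apex itself were called, where 1.27% of all tested genes rose and 3.48% fell. Among the shoot meristem genes 14 fitted changes were negative and 4 positive, with a median of -0.17 on the log2 scale. Of 18 shoot meristem genes AIL5, an AP2 factor of organ growth, rose from 45.2, 31.6 and 38.0 CPM to 50.8, 53.0 and 47.0 CPM (log2 change 0.39, SE 0.11, adjusted p = 0.0379). Of 20 leaf polarity and growth genes the growth regulator GRF5 (0.49) and its partner AN3 (0.38) rose. None of the 3 passed without replicate 3, where they were at 0.43, 0.45 and 0.36. With all libraries no tested gene passed among 21 of the cell cycle, 22 Polycomb, trithorax and remodeller genes, 19 of the epidermis, 23 of leaf mesophyll and photosynthesis, 5 of seed maturation, 17 of flavonoid synthesis or 14 of sugar starvation. Over all tested genes 4.75% passed, so that lists of such sizes would hold few or no calls at that share. The lack of a call does not show an unchanged level. Of the mesophyll markers 20 had a negative fitted change and 3 a positive one, with a median of -0.25. Their summed level was 18482 to 24904 CPM at 4 weeks and 16065 to 22065 CPM at 5 weeks, so that the sums overlapped. Without WT 5 weeks replicate 3 the cell cycle gene PCNA2, a sliding clamp of DNA replication, was called lower at -0.47 (adjusted p = 0.0416), from -0.30 with all libraries.

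Root and nutrition markers gave single falls, 1 of 5 and 1 of 20 tested, against 3.48% of all tested genes. In the nutrition list 5.0% were called, near the 4.75% of all tested genes. PHT1;1, a phosphate transporter of roots, went from 3.01, 1.48 and 2.79 CPM to 0.155, 0.101 and 0.207 CPM. It fell by 3.89 on the log2 scale (SE 0.54, adjusted p = 2.18e-05) and passed in every setting that left libraries out (adjusted p = 0.000839 without both). The groups did not overlap, and reads of near-identical PHT1 copies cannot be told apart from its own. The other 4 tested root markers did not pass. NAS4, a nicotianamine synthase of iron transport, went from 83.8, 102 and 91.7 CPM to 35.0, 35.6 and 10.9 CPM, a log2 change of -1.78 (SE 0.33, adjusted p = 0.00105). Its adjusted p was 0.0572 without both libraries.

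Wounding and jasmonate genes were uneven between libraries at 5 weeks. All but 1 of the 18 genes had a positive fitted change, with a median of 1.56. THI2.1 alone passed, against 1.27% higher among all tested genes. VSP1, a storage protein induced by jasmonate, was at 17.4, 8.15 and 40.8 CPM and at 78.7, 272 and 48.4 CPM (log2 change 2.54, SE 1.02, adjusted p = 0.161). LOX2, an enzyme of jasmonate synthesis, was at 43.5, 22.2 and 106 CPM and at 136, 359 and 76.7 CPM (adjusted p = 0.366). Replicate 2 was the high library at 5 weeks in both, and the summed level of the list was 939, 1983 and 811 CPM, against 332 to 757 CPM at 4 weeks. None of 24 genes of rapid stress and touch response passed (median 0.74). The salicylic acid marker PR1 fell by 3.08 (SE 0.66, adjusted p = 0.00347), from 1.88, 2.1 and 1.74 CPM to 0.155, 0.302 and 0.207 CPM, while the other 18 of its list did not pass. It was at -3.05 without WT 5 weeks replicate 3 (adjusted p = 0.0341) and at -2.98 without both libraries, where it was not called (adjusted p = 0.0792). In the list of PR1 5.26% of the tested genes were called, near the 4.75% of all tested genes.

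Clock, light, cold and heat lists each held 1 or 2 called genes, of 16, 21, 14 and 6 tested. Over all tested genes 1.27% rose and 3.48% fell, so that lists of such sizes would hold few or no calls at that share. LHY fell by 4.68 (SE 1.40, adjusted p = 0.0464) and by 1.22 without WT 4 weeks replicate 2 (adjusted p = 0.777). The bZIP factor HYH, at 1.27, 17.5 and 1.84 CPM and then 0.928, 0.704 and 0.758 CPM, fell by 3.01 (adjusted p = 0.0111) and had an adjusted p of 0.569 without that library. BOA, an evening gene, was at 0.804, 0.123 and 0.685 CPM and then 1.55, 1.81 and 6.61 CPM, with adjusted p 0.0285 and, without WT 5 weeks replicate 3, 0.388. Without WT 5 weeks replicate 3 LHY and HYH were at -4.18 and -2.96 (adjusted p = 0.218 and 0.0787). Without WT 4 weeks replicate 2 BOA was at 2.18 (adjusted p = 0.13), so that none of these 3 was called with either library left out. The light and shade list also held 1 rise with all libraries, 2 without WT 5 weeks replicate 3 and 1 without both libraries. NCED3 (-2.52), of abscisic acid synthesis, and HSP18.2 (-0.96), a heat shock protein, were called with all libraries and not without replicate 3, where the changes were -2.80 and -0.80 (adjusted p = 0.0575 and 0.255).

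Of the tested glucosinolate genes 2 regulators fell with all libraries, against 3.48% of all tested genes, and 0 without WT 5 weeks replicate 3. That library was the lowest of its group for 18 of the 21 genes (85.7%), against 36.5% of all tested genes. MYB28 and MYB76, activators of the aliphatic branch, fell by 1.45 (SE 0.34, adjusted p = 0.00808) and 2.60 (SE 0.55, adjusted p = 0.00356), the only 2 of 21 tested. MYB28 was at 127, 189 and 165 CPM and then 78.2, 76.3 and 22.2 CPM, apart between the weeks. MAM1, a chain-elongation enzyme of the branch, was at 1032, 972 and 1526 CPM and then 1316, 886 and 209 CPM, overlapping between the weeks (adjusted p = 0.699). Without replicate 3 neither MYB gene passed (adjusted p = 0.0888 and 0.0553). For MAM1 too, replicate 3 was the lowest at 5 weeks in quintuple (340, 137 and 70.6 CPM) and in chr4-2 (525, 384 and 223 CPM).

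Of the 248 rises 68 kept their call without WT 5 weeks replicate 3, so that most lost it. That library was the highest of its group at 53.6% of the rises, against 43.0% of all genes with a higher mean. It was the highest in each of the rises named next. PP2-B14 and PP2-B13, neighbouring genes of F-box proteins with a phloem lectin domain, were at 0.309, 0.704 and 15.1 CPM and at 0.232, 1.01 and 21.1 CPM at 5 weeks. At 4 weeks they had 1 and 3 reads in the group, and neither was called without that library, at fitted changes of 3.92 and 2.88 (adjusted p = 0.467 and 0.576). The calls of both also ended without any 1 of the 4 week libraries (adjusted p from 0.0556 to 0.103). They are paralogues, so that reads may be shared between them. NAC061 (0.387, 0.302 and 4.48 CPM) also lost its call, at 1.76 (adjusted p = 0.647), and AT1G05575 (0.309, 0.503 and 2.34 CPM) was too low to be tested without it. In the other direction AT4G19520, a disease resistance protein gene, was at 3.55, 1.98 and 3.84 CPM and then 1.16, 0.503 and 7.92 CPM. Its log2 change of 0.05 with all libraries was -1.89 without replicate 3 (adjusted p = 0.0425).

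The neighbouring intervals share libraries with this one, so that values are set side by side only. From 3 to 4 weeks 6834 genes (34.9%) changed in WT, 3433 higher (17.5%) and 3401 lower (17.4%), and from 5 to 6 weeks 69 (0.353%). Without WT 5 weeks replicate 3 the latter count was 452. PP2-A1 was at 65.0, 71.8 and 68.2 CPM at 3 weeks and 23.4, 22.4 and 17.7 CPM at 6 weeks, so that its level at 4 weeks was the highest of the 4 weeks. The same held for IPT3, at 19.9, 18.1 and 16.8 CPM and at 4.91, 3.44 and 2.42 CPM. BOP2 stood at 32.9, 33.4 and 36.3 CPM at 3 weeks and at 12.5, 14.2 and 11.9 CPM at 6 weeks, and HFR1 had almost no read at 3 weeks (0, 0 and 0.136 CPM).

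The same interval was read in quintuple and chr4-2, which share no library with WT. CHR4 itself was read at 82.0 to 111 CPM in the chr4-2 libraries of these weeks and at 193 to 238 CPM in WT. In quintuple 2218 genes (11.3%) changed and in chr4-2 2066 (10.6%). Of the 681 WT falls, 476 were also called lower in chr4-2 (69.9% of the WT falls and 39.2% of the 1214 in chr4-2), against 6.2% of all tested genes. In quintuple 301 were called lower (44.2% of the WT falls and 20.9% of its 1440), against 7.36%. Of the 248 WT rises, 131 were called higher in chr4-2 (52.8% of them and 15.4% of its 852), against 4.35%. In quintuple 33 were (13.3% of them and 4.24% of its 778), against 3.98%.

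These counts stand beside a shared pattern of replicates. Within a week, libraries of the same number in WT and chr4-2 deviated together from their group means, with correlations over genes of 0.268, 0.464 and 0.174 at 4 weeks and 0.2, 0.32 and 0.321 at 5 weeks. In WT and quintuple they were 0.412, 0.367 and 0.0115, and 0.208, 0.133 and 0.169. Unmatched numbers of WT and chr4-2 reached 0.11 at 4 weeks and 0.0228 at 5 weeks. In WT and quintuple at 4 weeks they reached 0.102, above the matched 0.0115. Unmatched WT libraries of 4 and 5 weeks reached 0.244, above several of the matched values. The genotypes therefore cannot be taken as independent in what a replicate number carries, such as the clock genes of replicate 2 at 4 weeks. Its part in the counts was not tested. Without replicate 2 of every genotype at 4 weeks and WT 5 weeks replicate 3, 187 genes (0.958%) were called in WT, 153 lower (0.784%) and 34 higher (0.174%). Of the 153 lower, 128 were called lower in chr4-2 (83.7%, against 5.65% of all tested) and 54 in quintuple (35.3%, against 4.56%). Of the 34 higher, 23 were called higher in chr4-2 (against 3.6%) and 3 in quintuple (against 1.11%).

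**Figure D5:**
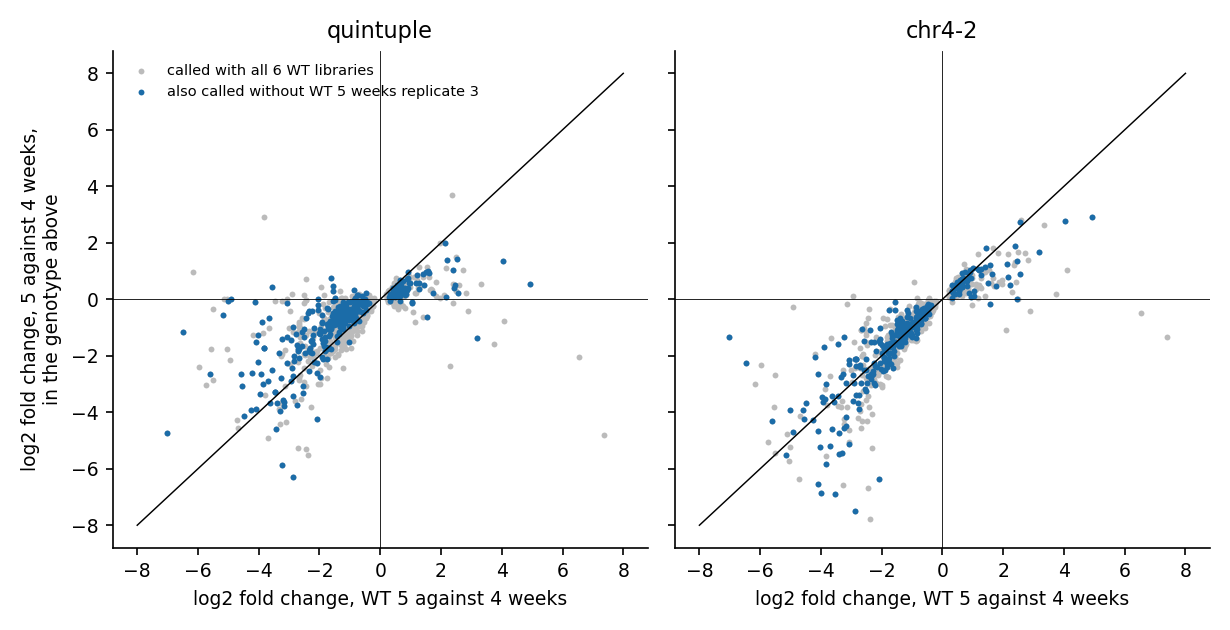
Fitted log2 fold change of 5 against 4 weeks in quintuple (left) and chr4-2 (right) against that in WT for the 929 genes called in WT, with the line of equal values. Blue points are genes also called in WT without WT 5 weeks replicate 3, and of the 681 WT falls 676 lie below 0 in chr4-2 and 640 in quintuple.

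The list members behaved alike in part. PP2-A1 fell by 1.79 in quintuple and 2.63 in chr4-2 and IAA3 by 1.75 and 1.70, all called in edgeR's test there. Vascular genes fell in 13 of 19 in quintuple and 10 of 19 in chr4-2, where 7.36% and 6.2% of all tested genes were lower, against 3.48% in WT. Of the 21 glucosinolate genes 11 fell in quintuple and 10 in chr4-2, and of the 23 mesophyll genes 13 and 11, where WT had 2 and 0 calls. Whether these lists differed between genotypes was not tested as lists, and no member had a difference that passed in the fit without a replicate block.

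The WT step differed from that in quintuple at 1 of the 19566 genes (0.00511%) and from that in chr4-2 at 0. GH9B13, a glycosyl hydrolase of the endoglucanase family (TAIR10.1 chromosome 4), was at 382, 453 and 498 CPM in WT at 4 weeks and at 216, 191 and 168 CPM at 5 weeks. It fell by 1.21 on the log2 scale (SE 0.14, adjusted p = 2.72e-06), and by 1.11 without both libraries (adjusted p = 0.000839). In quintuple it was at 211, 251 and 206 CPM and then at 201, 199 and 230 CPM, a change of -0.08 (adjusted p = 0.742). Of the 3 WT libraries at 5 weeks, replicate 1 lay within the quintuple values and the others below all of them. The difference of the steps was -1.13 (SE 0.20, adjusted p = 0.0431). Without 1 library at a time it lay between -1.24 and -1.04, with adjusted p from 0.0196 to 0.244. The call ended without WT 4 weeks replicate 2 or 3, WT 5 weeks replicate 2, quintuple 4 weeks replicate 1 or 3, or quintuple 5 weeks replicate 3, and also without both libraries (-1.03, adjusted p = 0.0702) and with the compared libraries alone (adjusted p = 0.342). The adjusted p was 0.0102 without replicate 2 of every genotype at 4 weeks and WT 5 weeks replicate 3. In chr4-2 it fell from 325, 633 and 434 CPM to 241, 264 and 232 CPM, a log2 change of -0.92 (adjusted p = 7.69e-05).

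An unadjusted p under 0.05 for the difference was met at 2273 genes (11.6%) for quintuple and at 769 (3.93%) for chr4-2. With no difference at any gene a share near 0.05 would meet it, and the chr4-2 share lay below that. DESeq2 called 2 genes for the difference from quintuple and 0 for that from chr4-2. Without WT 5 weeks replicate 3 the counts were 18 (0.0921%) and 1 (0.00511%), the latter AT1G12810, which was named after its values were seen. With the replicate number as a block within each week, a setting added after the data were seen, the difference from quintuple had 162 calls, 94 higher and 68 lower, and that from chr4-2 had 0. Same-numbered libraries correlated at 0.174 or more between WT and chr4-2, and in 1 of 6 correlations at only 0.0115 between WT and quintuple.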

How the data were processed

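RNA of shoot apices was sequenced after TruSeq preparation, per the labels' protocols. The authors deposited raw counts, 1 column for each of 48 samples per the file headers. TopHat2, SAMtools, HTSeq, DESeq2 and the build TAIR10 are listed per the submitters' processing notes, with roles and versions not given in the sources used here. Whether counting used strand is not given either, so that reads of antisense or overlapping genes cannot be told apart. Coordinates, names and sequences came from RefSeq TAIR10.1.

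The qem2 column (5 weeks, replicate 3) held the same counts as its quintuple counterpart and was dropped, leaving 47 libraries in 16 groups. They entered 1 quasi-likelihood fit with edgeR 4.0.16 (limma 3.58.1, R 4.3.3) after TMM scaling and filterByExpr, so that 1 spread (biological coefficient of variation 14.7%) served all groups. A call is a Benjamini-Hochberg adjusted p under 0.05 over 19566 genes. DESeq2 1.42.0 and the alternatives of the closing section were run beside it. On simulated counts for WT 5 against 4 weeks (19252 genes, 200 changed), 52.2% of 1.5-fold, 80.6% of 2-fold and 90.9% of 4-fold changes were recovered, with 4.49% false calls. The counts were drawn independently around 1 mean per gene, and only genes with a mean of at least 1 CPM were changed. No library was set apart and replicates shared no pattern, unlike in the data. The simulated shares therefore do not give the false calls of the real comparison. In the shallowest of the 6 libraries compared 10 reads are 1.23 CPM. Counting intervals (exact binomial) and floors cover counting error only.

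Members and the 29 lists (529 genes, 468 tested) were chosen with earlier results of these data known. Named genes are the 12 largest rises and falls called with and without WT 5 weeks replicate 3, with groups apart and at least 1 CPM, up to 4 called members per list, the 4 largest of each direction lost or gained without that library, the 5 of smallest p per difference test, the mutated loci and defining list members.

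Same-numbered WT libraries of 4 and 5 weeks did not deviate together (correlations of deviations -0.249, -0.11 and -0.213). Unmatched WT libraries of these weeks reached 0.244. Within a week same-numbered WT and chr4-2 libraries had 0.174 to 0.464, and unmatched ones at most 0.11. A pairing there rests on these values alone.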

Additional observations from a re-analysis of the deposited data

Results flagged for a closer look

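The fall of GH9B13 from 4 to 5 weeks was met in WT and not in quintuple, and the test of the difference itself marked it. The log2 change was -1.21 in WT and -0.08 in quintuple, and their difference was -1.13 (SE 0.20, edgeR adjusted p = 0.0431), with all 3 WT libraries at 5 weeks below all 3 at 4 weeks. In quintuple the weeks overlapped. The difference was between -1.24 and -1.04 without 1 library at a time, with adjusted p from 0.0196 to 0.244, so that the call depended on single libraries.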

How the results depend on the processing

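The count of 929 genes for WT 5 against 4 weeks was 931 with RLE scaling, 819 without the filter, 1110 with DESeq2 and 919 with all 48 columns. It was 578 with 12 WT libraries, 464 with a minimum of 2-fold, 47 with the compared libraries alone, and ran from 329 to 1014 without 1 replicate. It was 158 without WT 4 weeks replicate 2 and WT 5 weeks replicate 3, 550 without replicate 2 of every genotype at 4 weeks and 187 without these and WT 5 weeks replicate 3, settings added after the data were seen. For the 43 called list members, of 468 tested, the values were 25 at the fold minimum, 4 with the compared libraries alone, 20 to 45 without 1 replicate, and 10, 27 and 13 in the 3 added settings. Fewer samples and so a spread estimated from less data are built into the settings that leave libraries out, and other causes were not tested.

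The difference from quintuple (1 gene) was 2 with DESeq2, 0 with the compared libraries alone, 0 to 18 without 1 replicate, and 7, 1 and 3 in the added settings. The difference from chr4-2 (0) was 0 to 1 without 1 replicate and 1 in the first added setting. The 69 genes of WT 6 against 5 weeks were 37 without the filter, 227 with DESeq2 and 0 to 452 without 1 replicate. The 6834 of WT 4 against 3 weeks kept within 1.5 times in every setting, at 5229 to 6697 without 1 replicate.

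With the replicate number as a block, the counts were 0 for WT 5 against 4 weeks, 0 for list members, 0 for both differences, 6 for WT 6 against 5 weeks and 5827 for WT 4 against 3 weeks. The numbers pair no WT libraries across weeks. A block within the week, added after the data were seen, gave 162 genes for the difference from quintuple, 94 higher and 68 lower. For quintuple 1 of the 6 same-numbered correlations with WT was 0.0115. The block gave 0 genes for the difference from chr4-2.

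Among 87 named genes AT4G19520 changed sign, from 0.05 to -1.89 without WT 5 weeks replicate 3, -2.09 without WT 4 weeks replicate 2 too and -2.10 in the third added setting (-1.89 to 0.51 without 1 replicate). Over all settings 976 values of named genes kept their direction and call, 384 lost the call and 9 gained one. Genes near 1 CPM rest on few reads, with 10 reads at 0.527 to 1.23 CPM in these libraries.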

Other observations

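Families taken from the product names of RefSeq TAIR10.1 were looked at after the values were seen, so that their counts are descriptions with no test. For every family below, the share of all tested genes that fell was 3.48% with all libraries. It was 1.28% without WT 5 weeks replicate 3 and 0.681% without WT 4 weeks replicate 2 as well. Of 12 tested laccases, which polymerise lignin, 6 fell and none rose (median log2 change -1.08), against 3.48% lower among all tested genes, and 1 fell without WT 5 weeks replicate 3. Of 104 genes with pectin in the name 13 fell and none rose (median -0.08), with 3 falls without that library and 1 without both libraries. Of 19 expansins, which loosen walls, 7 fell, 3 did without that library and 2 without WT 4 weeks replicate 2 as well. EXPB3, a beta-expansin, went from 127, 162 and 173 CPM to 57.3, 60.0 and 46.4 CPM, a log2 change of -1.50 (SE 0.19, edgeR adjusted p = 6.36e-06). The 3 libraries at 5 weeks lay far below those at 4 weeks, and the change was -1.39 without replicate 3 (adjusted p = 0.000417).

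Of 39 genes of the peroxidase superfamily 10 fell and none rose, against 3.48% lower among all tested genes. There were 8 falls without WT 5 weeks replicate 3 (1.28% of all tested genes) and 7 without both libraries (0.681%). AT2G18150 went from 3.68, 4.08 and 4.37 CPM to 0.464, 0.604 and 0.207 CPM, a log2 change of -3.29 (SE 0.42, adjusted p = 6.36e-06). In the other lines 10 of the 39 fell in quintuple and 11 in chr4-2, against 7.36% and 6.2% of all tested genes. Of 55 proteins with a cysteine and histidine-rich C1 domain 11 fell, against the same 3.48%, 4 without replicate 3 and 1 without both. Of 44 lipid-transfer proteins 7 fell and 1 rose, against 3.48% and 1.27% of all tested genes. There were 3 falls and no rise without replicate 3 and 1 fall without both.

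Among 49 genes of translation initiation 4 rose and none fell, against 1.27% higher among all tested genes, with 3 rises without replicate 3 and 1 without both libraries. EIF3E, a subunit of initiation factor eIF3, went from 243, 248 and 232 CPM to 302, 310 and 306 CPM, a log2 change of 0.35 (SE 0.07, adjusted p = 0.0013). The groups were apart with little spread, and the change was the same without replicate 3 (0.35, adjusted p = 0.0106).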
